A study of Mus musculus with 12 samples.

Results

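The Sall, Tshz and Zfhx zinc-finger factors were described across the cells of the developing mouse cochlea. All 10 genes with these names among the 24489 gene columns of the count table were taken (Sall1 to Sall4, Tshz1 to Tshz3, and Zfhx2 to Zfhx4), whatever their level, and each had at least 1 read. Cells positive for tdTomato had been sorted from mice in which a Cre driver switches on the Ai14 reporter, and their mRNA was sequenced with Smart-seq2, a full-length protocol for cells in separate wells. The labels give PVcre;Ai14 for 11 of the 12 plates and TrkCcre for E14.5 replicate 2, so by their labels the 2 E14.5 plates differ in driver. The study's methods name the Ntrk3 (TrkC) driver for that age, and the driver of E14.5 replicate 1 is therefore uncertain. Most stages have 2 plates, and the exceptions are E16.5 (3 plates) and E17.5 (1 plate); the others are E14.5, E15.5, E18.5 and the postnatal day P3. PVcre is driven by the parvalbumin gene and TrkCcre by the neurotrophin-3 receptor gene. By their markers, the sorted cells held spiral ganglion neurons (SGNs), glia, otic mesenchyme (OM) and hair cells (HCs), and how the non-neuronal cells came into the sort was not tested. Animals were pooled within an experiment, and the labels do not say which plates came from separate animals, so p-values measure the spread between plates only. No gene was perturbed and all groups are developmental stages or cell classes of reporter mice.

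Sall proteins are vertebrate relatives of the fly factor spalt and act mostly as transcriptional repressors, through an N-terminal motif that binds the NuRD deacetylase complex. In mice Sall1 is needed for kidney formation, and in human SALL1 mutations cause Townes-Brocks syndrome, which includes hearing loss and malformed ears. Sall2 is the most divergent member, and Sall4 is a factor of embryonic stem cells and germ cells. Tshz proteins are relatives of fly teashirt, bind CtBP co-repressors and pattern muscle, ureter, olfactory and brainstem neurons. Zfhx proteins are very large factors with many zinc fingers and several homeodomains. Zfhx3 (Atbf1) promotes cell cycle exit and neuronal differentiation and sets circadian rhythm in the hypothalamus, Zfhx2 is needed in sensory neurons for normal pain sensitivity, and Zfhx4 takes part in craniofacial and skeletal development.

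Reads of kept cells came to between 80997594 and 303906928 per plate, with medians of 4691 to 9629.5 genes detected per cell. The plates of the series SS2_20 (all of E14.5, E15.5 and E17.5, and E16.5 replicate 3) had medians of 4691 to 4983 genes, and all others had at least 8426. E18.5 was sequenced in series SS2_19 alone and P3 in SS2_15 alone, so stage and plate series cannot be told apart for them. Cells were placed into classes by marker genes that exclude all members, and the marker lists followed the names: neuronal markers took 1.61% to 2.25% of reads in SGN-like cells. Glial markers took 0.00659% to 0.0212% of reads in SGN-like cells of SS2_20 plates, 0.0914% to 0.109% in SS2_18, 0.404% to 0.418% in SS2_19 and 0.747% to 0.947% in SS2_15. The share of glial reads thus rose with stage and series in neurons, and comparisons of stages were repeated without the 25% of cells that held most of them.

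The promoter windows of Sall1 and Sall2 are printed because both genes were higher in hair cells than in neurons, and that of Zfhx2 because it marked the neurons and fell with age in them. Each window is 300 bases around an annotated start (RefSeq, GRCm38.p6), 5′ to 3′ on the gene's own strand. Capitals mark E-box motifs, the sites of basic helix-loop-helix factors such as those of the Atoh and Neurod families. The search covered both strands and used the motif CAGCTG, the motif CAGATG (which reads as CATCTG on the opposite strand) and the motif CACGTG.
Sall1, chr8:89044113-89044412, minus strand: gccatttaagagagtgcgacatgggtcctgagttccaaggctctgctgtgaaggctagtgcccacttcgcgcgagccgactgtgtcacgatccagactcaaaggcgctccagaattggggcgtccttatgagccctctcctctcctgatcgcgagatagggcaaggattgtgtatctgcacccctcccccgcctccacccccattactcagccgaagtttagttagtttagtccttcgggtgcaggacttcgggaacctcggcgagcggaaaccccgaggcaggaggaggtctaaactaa
Sall2 upstream start, chr14:52328621-52328920, minus strand: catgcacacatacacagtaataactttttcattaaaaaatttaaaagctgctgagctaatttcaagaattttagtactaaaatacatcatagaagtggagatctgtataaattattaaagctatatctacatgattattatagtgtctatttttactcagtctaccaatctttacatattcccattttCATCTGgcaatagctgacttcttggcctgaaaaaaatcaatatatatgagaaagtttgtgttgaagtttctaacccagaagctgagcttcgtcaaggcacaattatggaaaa
Sall2 downstream start, chr14:52316274-52316573, minus strand: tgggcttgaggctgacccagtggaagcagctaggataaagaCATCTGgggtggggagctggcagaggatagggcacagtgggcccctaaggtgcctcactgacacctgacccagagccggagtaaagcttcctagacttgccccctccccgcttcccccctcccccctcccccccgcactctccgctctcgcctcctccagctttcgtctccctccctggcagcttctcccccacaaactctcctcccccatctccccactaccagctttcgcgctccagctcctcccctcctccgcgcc
Zfhx2, chr14:55091999-55092298, minus strand: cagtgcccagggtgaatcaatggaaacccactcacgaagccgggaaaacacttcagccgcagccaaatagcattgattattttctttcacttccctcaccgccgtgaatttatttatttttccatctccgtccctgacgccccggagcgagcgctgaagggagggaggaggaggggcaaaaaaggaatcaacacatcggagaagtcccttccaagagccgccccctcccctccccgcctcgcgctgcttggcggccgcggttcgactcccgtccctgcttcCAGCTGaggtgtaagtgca
Each Sall2 window held 1 CAGATG, the Zfhx2 window held 1 CAGCTG, and none of the 3 annotated windows of Sall1 held any of the motifs. Of all 32851 annotated windows, 17.2% held CAGATG, 16.3% CAGCTG and 7.15% CACGTG. These letters describe the windows and say nothing of binding, and the read counts are per gene and do not separate the starts of Sall2.

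Levels differed widely between members. Per kilobase of exon, in SGN-like cells of the 6 SS2_20 plates, the mean level in CPM, read counts scaled to the size of each sum, was 17.3 for Zfhx4, 17.0 for Sall2 and 16.53 for Tshz2. It was 9.58 for Zfhx2, 6.77 for Tshz1, 5.74 for Zfhx3, 2.23 for Tshz3, 0.488 for Sall3, 0.0492 for Sall4 and 0.0435 for Sall1. In glia-like cells the order on this scale was led by Tshz1 at 9.75 and Sall2 at 8.24, and in OM-like cells by Zfhx4 at 38.0. Sall4 stayed at or under 1.55 CPM in the sums of these 6 plates, was at 0 in every hair cell sum and was called in no comparison. None of 69 hair cells of E18.5 had a Sall4 read, with an exact (Clopper-Pearson) 95% interval of up to 5.21% of cells, which covers counting error only.

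The members lie on 6 chromosomes of the mouse (GRCm38, GENCODE M21). Sall1 is on the minus strand at chr8:89027235-89044162, Sall2 on the minus strand at chr14:52311172-52328762, Sall3 on the minus strand at chr18:80966376-80986771 and Sall4 on the minus strand at chr2:168748332-168767943. Tshz1 is on the minus strand at chr18:84011627-84087706. Tshz2 spans chr2:169633013-170071816 on the plus strand and Tshz3 spans chr7:36698118-36773553 on the plus strand. Zfhx2 is on the minus strand at chr14:55060262-55092324, Zfhx3 on the plus strand at chr8:107942644-108961630 and Zfhx4 on the plus strand at chr3:5218526-5415857. Zfhx2 shares 3255 exonic bases with Zfhx2os on the opposite strand, and Tshz2 shares 5076 with Gm26883. The sources used here do not say if counting used strand, so reads of these partners cannot be told apart from those of Zfhx2 and Tshz2. Zfhx2os has a column of its own in the count table, whereas Gm26883 does not.

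Neurons were set against glia and otic mesenchyme to learn which members separate the cell classes of the ganglion. SGN-like, glia-like and OM-like cells of the same 6 SS2_20 plates were compared, with the reads of each class summed per plate. Unless stated, ranges and overlaps of these classes are of these 6 plates. Against neurons, glia had lower Sall2, Tshz2, Zfhx2, Zfhx3 and Zfhx4, and no member was called higher. Thus 5 of the 10 members were called at an adjusted p under 0.05, beside 54.3% of all genes tested (28.4% higher and 25.9% lower). In OM, 7 members were called against neurons, beside 55.0% of all genes (28.7% higher and 26.2% lower), with Sall1, Tshz3 and Zfhx4 higher and Sall2, Sall3, Tshz2 and Zfhx2 lower. Between OM and glia 6 members were called, beside 25.5% of all genes (13.0% higher and 12.5% lower). Nothing is read from these shares alone.

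Zfhx2 marked the neurons. Its level in SGN-like cells ran from 130.3 to 196.7 CPM over the plates (median 181.7), in glia-like cells from 20.7 to 37.7 (median 25.6) and in OM-like cells from 15.04 to 36.1 (median 20.3). Every neuronal sum of these plates was above every other sum. Zfhx2 was 6.70-fold lower in glia (log2 fold change -2.74, SE 0.22, adjusted p = 5.9e-08) and 7.90-fold lower in OM (-2.98, SE 0.22, adjusted p = 3.4e-08). Reads of Zfhx2 were found in 93.4% to 100% of SGN-like cells of a plate, and in 33.3% to 45.0% of glia-like cells. In the SS2_18 plates of E16.5, outside this fit, neurons had 157.7 and 162.9 CPM. Glia there (17 and 9 cells) had 96.3 and 87.8, and OM (5 and 10 cells) had 84.9 and 146.4. An E16.5 neuron cluster led by Fam19a2, Hs3st2 and Sulf2 had 31.8 and 34.5 CPM in those plates.

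Tshz2 was also highest in the neurons of the SS2_20 plates. It ran from 51.4 to 186.7 CPM in SGN-like cells (median 142.3), from 16.0 to 32.8 in glia (median 29.2) and from 19.7 to 69.8 in OM (median 37.0). Neurons and glia of these plates did not overlap, whereas the highest OM sum (E17.5) exceeded the lowest neuronal sum (E14.5 replicate 1). In the SS2_18 plates of E16.5, outside this fit, neurons had 152.6 and 148 CPM, glia 99.6 and 144.4, and OM 90.2 and 148.2. Tshz2 was 4.48-fold lower in glia (adjusted p = 2.9e-07) and 3.25-fold lower in OM (adjusted p = 3.3e-06). Sall2 was 2.13-fold lower in glia, with 73.9 to 111 CPM in neurons (median 91.0) and 31.7 to 63.9 in glia (median 42.9), and the groups did not overlap (adjusted p = 1.8e-05). It was 1.58-fold lower in OM, which had 48.4 to 63.7 CPM (median 58.8), again without overlap (adjusted p = 0.0015). Over all E16.5 plates, including those outside this fit, Sall2 reached 89.9 CPM in OM and 82.0 in neurons.

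Zfhx4 was the most abundant member of the mesenchyme. OM-like cells had 491.2 to 777.2 CPM (median 574), SGN-like cells 206.9 to 355.6 (median 253.1) and glia-like cells 74.1 to 113.9 (median 100.5). The groups were fully separated in that order. The log2 fold change was 1.16 (SE 0.11, adjusted p = 5.9e-07) for OM against neurons, -1.52 (SE 0.12, adjusted p = 3.6e-08) for glia against neurons and 2.68 (SE 0.12, adjusted p = 1.9e-09) for OM against glia. Zfhx3 was less divided, at 43.6 to 171.3 CPM in neurons (median 126.8), 55.7 to 89.3 in glia (median 71.2) and 76.5 to 147 in OM (median 112.4). All ranges overlapped. Zfhx3 was 1.66-fold lower in glia than in neurons (adjusted p = 0.0071) and 1.60-fold higher in OM than in glia (adjusted p = 0.024).

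Sall1 and Sall3 divided the non-neuronal classes. Sall1 lay between 6.53 and 24.1 CPM in OM (median 13.1), between 0 and 0.504 in neurons (median 0.245) and between 0.377 and 2.41 in glia (median 0.655). OM did not overlap either class, although only 8.70% to 18.4% of OM-like cells of a plate had a Sall1 read. The log2 fold change of OM was 5.86 against neurons (SE 0.91, adjusted p = 6.0e-05) and 3.99 against glia (SE 0.83, adjusted p = 0.0024). Hair cells also hold Sall1, as did epithelium-like cells of the E15.5 plates (254.2 and 337.4 CPM). Of the 9 hair cell markers, Atoh1, Gfi1 and Lhx3 were at 0 in the OM-like sums of all 6 plates. All 9 together took 0.0157% to 0.0271% of reads. The part of RNA from these other cells in the Sall1 of OM was not tested.

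Sall3 went the other way. Glia had 5.63 to 14.8 CPM (median 9.13) and neurons 0.617 to 7.56 (median 3.31), while 4 of the 6 OM sums were at 0 and the highest was 2.69, in E16.5 replicate 3. Only 5.02% to 9.83% of glia-like cells of a plate had a Sall3 read. OM and glia did not overlap, OM and neurons did, and OM was lower than glia with a log2 fold change of -5.96 (SE 1.24, adjusted p = 0.0023) and lower than neurons with -4.71 (SE 1.22, adjusted p = 0.0041). In neurons of E14.5, 60 of 62 Sall3 reads (replicate 1) and 110 of 120 (replicate 2) came from a cluster of 8 and 10 cells led by Th, Prdm12 and Scn10a, while the intermediate neurons of these plates had none. Without that cluster, OM remained lower than neurons (-3.28, adjusted p = 0.032), and Sall3 was at 2.42 for glia against neurons (adjusted p = 0.063). Where most sums hold no read, the size of such a fold change rests on the prior count of the fit. Between glia and neurons Sall3 was not called (adjusted p = 0.282), and it was called higher in glia (adjusted p = 0.015) once the 25% of cells with most markers of the other class was left out.

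Tshz3 was higher in OM, with 23.0 to 61.2 CPM (median 33.5) against 3.19 to 21.0 in neurons (median 13.9) and 2.19 to 33.6 in glia (median 9.05). OM and neurons did not overlap, and the glial sum of E17.5 stood above the 5 other glial sums. In the SS2_18 plates of E16.5, outside this fit, OM had 14.7 and 41.0 CPM and neurons 20.0 and 22.0. The fold was 3.14 against neurons (adjusted p = 0.010) and 3.74 against glia (adjusted p = 0.011). Tshz1 was not called in any of these comparisons, with mean levels of 39.6 CPM in neurons, 57.0 in glia and 41.1 in OM.

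**Figure D1:**
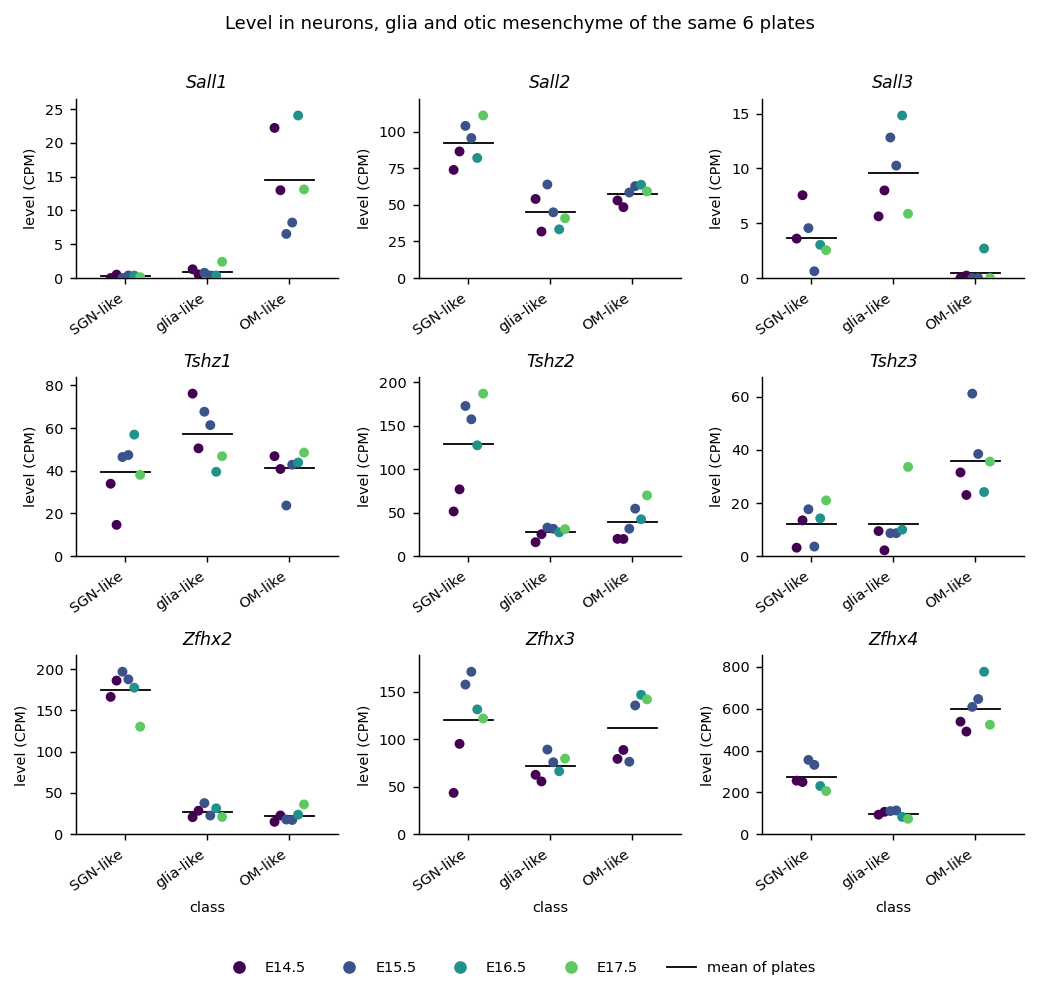
Level of 9 members in CPM (vertical axis, linear from 0) in SGN-like, glia-like and OM-like cells (horizontal axis) of the same 6 plates, with points for plates coloured by stage and bars for the mean. Zfhx2 in neurons stands above both other classes in every plate, and Zfhx4 in OM lies at 491.2 CPM or more in every plate.

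Some of these calls rested on single plates or settings. For glia against neurons, Zfhx3 was lost without E15.5 replicate 2 (-0.60, adjusted p = 0.0505), Sall1 was gained without that plate (2.59, adjusted p = 0.039), by DESeq2 (1.83, adjusted p = 0.0156) and by limma-trend (1.91, adjusted p = 0.0222), and Tshz1 was gained without E16.5 replicate 3 (0.75, adjusted p = 0.048). For OM against neurons, Tshz3 was lost without E14.5 replicate 1 (1.37, adjusted p = 0.0505). For OM against glia, Sall2 (log2 fold change 0.43, adjusted p = 0.047) was lost without E14.5 replicate 2, E15.5 replicate 2, E16.5 replicate 3 or E17.5 replicate 1 (0.31 to 0.39), as was Zfhx3 (0.57 to 0.63). Sall2 was lost there too with no filter on low counts (0.40, adjusted p = 0.0911), without the top 5% of cells (0.36, adjusted p = 0.112) and without the 25% of cells with most markers of the other class (0.32, adjusted p = 0.097). Tshz3 was lost there without E15.5 replicate 1 (1.67, adjusted p = 0.053), Tshz2 gained a call without E14.5 replicate 2 (0.61, adjusted p = 0.029) and Zfhx2 without E17.5 replicate 1 (-0.50, adjusted p = 0.040).

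Neurons of successive stages were compared to see how the members change as SGNs mature. Summed over all SGN-like cells, Tshz2 and Zfhx3 rose from E14.5 to E15.5, in sums whose makeup of neuron classes differed between the stages, and the 3 Zfhx genes and Sall2 fell from E18.5 to P3. From E14.5 to E15.5 2 of the 10 members were called, both higher, beside 6.01% of all genes (3.28% higher and 2.73% lower). Both stages are of plate series SS2_20.

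The E14.5 sums of 69 and 61 cells held 18 and 10 unspecialized-like neurons and 8 and 10 cells of the cluster led by Th, Prdm12 and Scn10a, whereas those of E15.5 held no unspecialized-like neurons and 20 and 24 early Ic-like ones. The unspecialized-like neurons of E14.5 had little of both genes, with Zfhx3 at 3.33 and 23.5 CPM and Tshz2 at 17.55 and 0. In intermediate neurons, Zfhx3 was at 126.9 and 186.6 CPM at E14.5 and at 191.8 and 162.8 at E15.5, and Tshz2 was at 103.6 and 202.7 and then at 185.5 and 187.1. The stages overlapped in both genes. Within intermediate neurons, of which there were 11 to 18 a plate, neither gene was called (log2 fold change 0.29 and adjusted p = 0.64 for Tshz2, 0.19 and adjusted p = 0.69 for Zfhx3), in a fit chosen after seeing the data. With the unspecialized-like neurons left out of all neurons, Tshz2 was called (1.11, adjusted p = 0.020) and Zfhx3 was not (1.00, adjusted p = 0.069), and without the Prdm12 cluster both were.

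Tshz2 was at 51.4 and 76.7 CPM in the E14.5 plates and at 172.5 and 157.2 in those of E15.5. The stages did not overlap, and the rise was 2.575-fold (log2 fold change 1.365, SE 0.21, adjusted p = 0.0057). Its level stayed near that value, at 152.6, 148 and 127.3 CPM at E16.5, 186.7 at E17.5, and 166.3 and 154.2 at E18.5. At E18.5 it was above E14.5 (log2 fold change 1.31, SE 0.21, adjusted p = 0.0015). The P3 plates had 129.5 and 89.3 CPM and did not pass the test against E18.5 (adjusted p = 0.086), although they did without P3 replicate 1 (-0.84, adjusted p = 0.032), E14.5 replicate 1 (adjusted p = 0.039) or E14.5 replicate 2 (adjusted p = 0.041).

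Zfhx3 was at 43.6 and 95.3 CPM at E14.5 and at 157.8 and 171.3 at E15.5. The E14.5 plates, which may differ in driver, stood further apart from each other than those of any other stage. The rise of 2.37-fold (log2 fold change 1.245, SE 0.30, adjusted p = 0.037) was lost without any of 7 plates, which were E14.5 replicate 1 (0.80), E15.5 replicates 1 and 2 (1.30 and 1.18), E16.5 replicates 1 and 2 and E18.5 replicates 1 and 2, with adjusted p of 0.058 to 0.12. Zfhx3 then ran at 152.6, 148.5 and 131.6 CPM at E16.5, 122.1 at E17.5, 93.7 and 83.9 at E18.5 and 48.5 and 33.3 at P3. The means were lower at each later stage from E15.5 on. The step from E18.5 to P3 was called (log2 fold change -1.10, SE 0.29, adjusted p = 0.019) and was lost without P3 replicate 2 (-0.87, adjusted p = 0.14), E18.5 replicate 1 (-1.03, adjusted p = 0.097) or E18.5 replicate 2 (-1.20, adjusted p = 0.0525). The step from E16.5 to E18.5 was not called, and passed without E14.5 replicate 1 (-0.73, adjusted p = 0.026) or E14.5 replicate 2 (-0.71, adjusted p = 0.027).

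Zfhx4 was at 256.4 and 249.7 CPM at E14.5, 355.6 and 331.9 at E15.5, 193.6, 201.5 and 230.9 at E16.5 and 206.9 at E17.5. It was at 133.2 and 141.4 at E18.5 and at 98.4 and 71.1 at P3. From E15.5 on, the stages with more than 1 plate did not overlap. It was the only member called from E15.5 to E16.5 (log2 fold change -0.72, SE 0.13, adjusted p = 0.026), beside 1.85% of all genes (1.37% higher and 0.482% lower). That call was lost with SS2_20 plates alone (-0.58, adjusted p = 0.59), where E16.5 has 1 plate, and without E15.5 replicate 1 or 2, E16.5 replicate 1 or 2, or E18.5 replicate 1 or 2 (-0.77 to -0.67, adjusted p of 0.057 to 0.12).

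Zfhx2 held its level until E16.5 and then fell. Its level was 166.3 and 186 CPM at E14.5, 196.7 and 187.5 at E15.5, 157.7, 162.9 and 177.4 at E16.5 and 130.3 at E17.5. It was 81.9 and 75.2 CPM at E18.5, and 23.8 and 15.3 at P3. Neither E18.5 nor P3 overlapped an earlier stage. From E16.5 to E18.5 2 of the 10 members were called, Zfhx2 and Zfhx4, beside 5.17% of all genes (2.86% higher and 2.31% lower). Zfhx2 fell 2.13-fold (log2 fold change -1.09, SE 0.17, adjusted p = 0.0060) and Zfhx4 1.53-fold (-0.62, SE 0.14, adjusted p = 0.029). Zfhx2 was lost there without E18.5 replicate 1 (-1.20, adjusted p = 0.067) or replicate 2 (-1.07, adjusted p = 0.084), and Zfhx4 without either of those plates (-0.61 and -0.69) or without E16.5 replicate 2 or 3 (-0.68 and -0.54).

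From E18.5 to P3 4 of the 10 members were called, all lower, beside 24.8% of all genes tested (12.8% higher and 12% lower). Zfhx2 fell 3.96-fold (log2 fold change -1.99, SE 0.18, adjusted p = 6.5e-05), the largest of the called steps of a member in neurons. Zfhx4 fell 1.60-fold (adjusted p = 0.0070). Sall2 was at 73.0 and 72.1 CPM at E18.5 and at 43.9 and 47.5 at P3, without overlap, and fell 1.57-fold (adjusted p = 0.0036). Tshz1 was at 36.5 and 35.5 CPM at E18.5 and at 16.4 and 16.2 at P3, also without overlap, and did not pass the test (adjusted p = 0.063). It passed without E14.5 replicate 1 or 2 or E16.5 replicate 3 (log2 fold change -1.14 to -1.13, adjusted p of 0.021 to 0.024). When the 25% of SGN-like cells with most glial marker reads was left out, these 4 calls stood and Tshz1 was called as well (-1.08, adjusted p = 0.029).

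Over the whole embryonic interval from E14.5 to E18.5, Tshz2 was called higher and Zfhx2 (log2 fold change -1.18, SE 0.18, adjusted p = 0.0010) and Zfhx4 (-0.90, SE 0.15, adjusted p = 0.0018) lower. That is 3 of the 10 members, beside 23.5% of all genes (14.0% higher and 9.55% lower), whose median log2 fold change was 0.11. Without E14.5 replicate 2, Tshz3 (2.79, adjusted p = 0.035) and Zfhx3 (1.02, adjusted p = 0.0105) were called higher too, whereas without E14.5 replicate 1 the difference of Zfhx3 was -0.10. Tshz3 in neurons was at 3.19 and 13.5 CPM at E14.5, 17.6 and 3.61 at E15.5 and between 14.2 and 24.4 at all later stages, and was called in no step. Sall3 in neurons was at most 16.9 CPM, in E16.5 replicate 2, and 5.435 there once a neuron cluster led by Fam19a2, Hs3st2 and Sulf2 was left out. Sall3 was called in no step, though DESeq2 called it lower at E18.5 than at E16.5 (-3.72, adjusted p = 0.0306), as did edgeR lower at P3 than at E18.5 without P3 replicate 1 (-8.75, adjusted p = 0.0327).

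**Figure D2:**
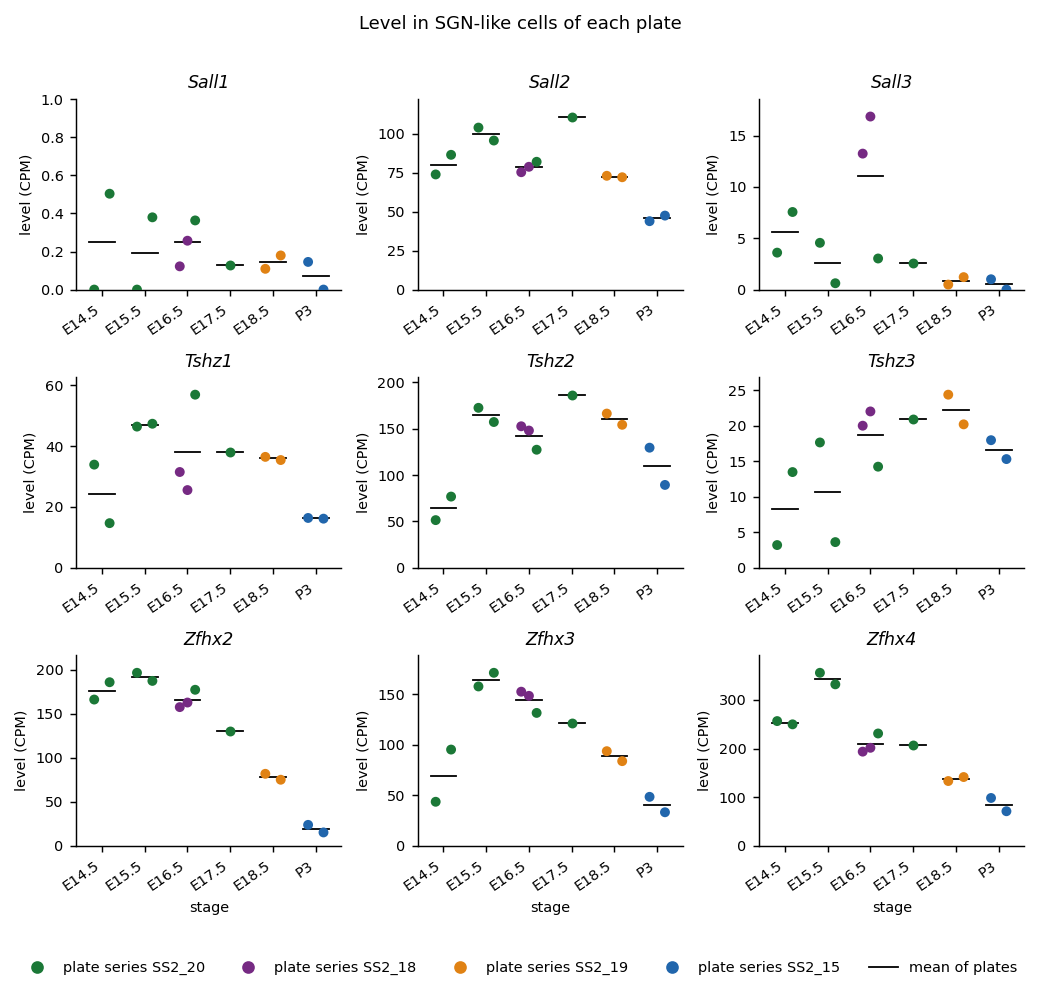
Level of 9 members in CPM (vertical axis, linear from 0) in SGN-like cells by stage (horizontal axis), with a point for each plate coloured by plate series and bars for the mean. Zfhx2 lies between 130.3 and 196.7 CPM up to E17.5 and at 15.3 and 23.8 CPM in the P3 plates, and each stage after E17.5 is of a series of its own.

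Glia-like cells showed no called member with age in the plates fitted. Between E16.5 and E17.5 together and E14.5, edgeR called 0 of the 10 members, as did DESeq2 and limma-trend, beside 0.387% of all genes (0.275% higher and 0.112% lower), and 3 members had an unadjusted p under 0.05. In the SS2_20 plates Zfhx4 in glia ran at 93.7 and 107.4 CPM at E14.5, 111 and 113.9 at E15.5, 83.2 at E16.5 and 74.1 at E17.5. The E16.5 and E17.5 plates of this series were below the 4 earlier ones. The glia of the other 2 E16.5 plates (17 and 9 cells, series SS2_18), which were not in the fit, had 163.6 and 128.8 CPM, above all of them.

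The first branch of the SGN lineage is set, in the study's scheme, between an early Ic class and an intermediate class with markers shared by Ia, Ib and II neurons. At E15.5 and E16.5, early Ic-like cells had more Sall3 and less Tshz2 than intermediate cells of the same 5 plates. These were 2 of the 8 members that passed the filter on low counts, beside 1.96% of all genes (1.03% higher and 0.934% lower). Sall1 and Sall4 did not pass it.

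Sall3 was at 19.55 and 2.29 CPM in early Ic-like cells of E15.5 and at 13.2, 19.8 and 13.55 in those of E16.5. In intermediate cells it was at 0 in 3 plates and at 0.466 and 0.246 in E16.5 replicates 1 and 2. The classes did not overlap, and the log2 fold change was 6.23 (SE 0.92, adjusted p = 0.0028). Sall3 reads were found in 57 of 239 early Ic-like cells (23.85%, exact 95% interval 18.6% to 29.8%) and in 10 of 386 intermediate cells (2.59%, 1.25% to 4.71%), at median depths of 298212 and 312124 reads. In later Ic-like cells Sall3 was at 12.05 CPM at E17.5, 1.46 and 3.15 at E18.5 and 2.88 and 0 at P3, and was not called against Ia (adjusted p = 0.229), though DESeq2 called it higher (5.71, adjusted p = 0.0263).

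Tshz2 in early Ic-like cells was at 93.1, 138.1, 76.4, 69.4 and 42.8 CPM, and in intermediate cells of the same plates at 185.5, 187.1, 204.1, 193.5 and 148.8. Early Ic was lower in each of the 5 plates and the classes did not overlap. The difference was 2.28-fold (log2 fold change -1.19, SE 0.20, adjusted p = 0.0076), and it was lost without E16.5 replicate 1 (-1.13, adjusted p = 0.061) or replicate 2 (-1.11, adjusted p = 0.071). Zfhx3 ran from 84.0 to 142.2 CPM in early Ic and from 148.9 to 191.8 in intermediate cells. It did not pass the test (log2 fold change -0.59, SE 0.15, adjusted p = 0.065), although the classes did not overlap, and DESeq2 called it (-0.59, adjusted p = 0.0057).

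Late classes of neurons were compared at E18.5 and P3. Here the Tshz genes divided Ic-like from Ia-like cells. At E18.5, 83 and 84 cells tied between Ib and Ic were in neither class, beside 29 and 36 Ic-like cells. Against Ia, Ic-like cells had more Tshz1 and less Tshz2, Tshz3 and Zfhx3, which are 4 of the 9 members tested, beside 4.65% of all genes (2.13% higher and 2.52% lower). Tshz1 was at 9.20, 13.35, 5.75 and 2.41 CPM in Ia-like cells and at 48.3, 78.65, 25.8 and 22.4 in Ic-like cells of the same plates (E18.5 replicates 1 and 2, then P3 replicates 1 and 2). The classes did not overlap, and Ic was 5.635-fold higher (log2 fold change 2.49, SE 0.32, adjusted p = 0.00068). The level of Ic was not particular to it. In the E18.5 plates, intermediate cells had 52.6 and 41.2 CPM, cells tied between Ib and Ic 44.2 and 46.4, and II-like cells 29.2 and 19.05. A Tshz1 read was found in 175 of 227 Ic-like cells (77.1%) and in 121 of 302 Ia-like cells (40.1%), at median depths of 767040 and 502035 reads.

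Tshz2 was at 226.4, 208.9, 160.7 and 103 CPM in Ia-like cells and at 108.5, 66.2, 64.2 and 49.9 in Ic-like cells of those plates. Ic was lower within each plate, and the lowest Ia value fell below the highest Ic value. The difference was 2.44-fold (log2 fold change -1.285, SE 0.17, adjusted p = 0.00098). This is the same direction as at the first branch, in plates not used there.

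Tshz3 was at 27.6, 25.0, 16.6 and 18.8 CPM in Ia and at 12.6, 7.81, 9.125 and 7.19 in Ic, without overlap (log2 fold change -1.29, SE 0.25, adjusted p = 0.0098). It was lost without P3 replicate 2 (-1.26, adjusted p = 0.060) or E18.5 replicate 2 (-1.16, adjusted p = 0.13). Zfhx3 was at 101.7, 89.1, 49.75 and 42.5 CPM in Ia and at 46.2, 54.1, 31.3 and 27.0 in Ic, with overlap across stages and lower values in Ic within each plate. Its log2 fold change of -0.82 (SE 0.17, adjusted p = 0.013) was lost without E18.5 replicate 1 (-0.70, adjusted p = 0.18) or replicate 2 (-0.85, adjusted p = 0.11).

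Zfhx4 was higher in Ic within each plate, at 188, 218, 103.3 and 81.9 CPM against 103.8, 110.8, 79.8 and 59.75 in Ia. It did not pass the test (log2 fold change 0.66, SE 0.19, adjusted p = 0.082). With the plate as a block it passed (0.65, adjusted p = 0.026), as it did without P3 replicate 1 (0.75, adjusted p = 0.015) or P3 replicate 2 (0.73, adjusted p = 0.037), so that 5 members were called under the block.

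Ib-like cells were named at P3 alone, and edgeR called 0 of 9 members against Ia, beside 0.558% of all genes (0.273% higher and 0.286% lower). At an unadjusted p under 0.05 there were 2, and DESeq2 called 1, Tshz1. Tshz1 was at 16.0 and 14.9 CPM in Ib and at 5.75 and 2.41 in Ia of the same plates (log2 fold change 1.71, SE 0.39, adjusted p = 0.088).

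Type II neurons, the afferents of outer hair cells, differed from type I in Tshz3 and Zfhx3, which were higher, and in Sall2 and Zfhx4, which were lower. These 4 of 9 members stand beside 15.2% of all genes (7.37% higher and 7.88% lower). Type II is represented by both E18.5 plates and P3 replicate 1, with 26, 19 and 18 cells. Tshz3 was at 49.5, 58.0 and 82.6 CPM in II-like cells, above every sum of Ia, Ib and Ic, the highest of which was 27.6. Type II was 4.51-fold above the mean of the type I classes (log2 fold change 2.17, SE 0.21, adjusted p = 3.9e-05), and a Tshz3 read was found in 96.15%, 100% and 94.44% of their cells.

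Zfhx3 was at 192.9, 179.8 and 125.4 CPM in II-like cells, and the highest type I sum was 101.7. The groups did not overlap, and type II was 3.08-fold higher (log2 fold change 1.62, SE 0.15, adjusted p = 2.7e-05). Sall2 was at 66.7, 48.8 and 15.8 CPM in II (log2 fold change -0.80, SE 0.20, adjusted p = 0.018) and was below each type I class of its plate, with overlap across stages. It was lost without P3 replicate 1 (-0.42, adjusted p = 0.28) or E18.5 replicate 2 (-0.91, adjusted p = 0.056), with cells thinned to the same depth (-0.73, adjusted p = 0.0639) and with all type I cells of a plate summed (-0.76, adjusted p = 0.0671). Zfhx4 was at 67.7, 74.6 and 55.2 CPM in II (log2 fold change -0.83, SE 0.20, adjusted p = 0.013), below each type I class of its plate. The groups overlapped across plates, since Ia and Ib of P3 replicate 2 had 59.75 and 61.99 CPM. The call of Zfhx4 was lost without E18.5 replicate 1 or replicate 2 (-0.73 in both, adjusted p = 0.11 and 0.10).

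**Figure D3:**
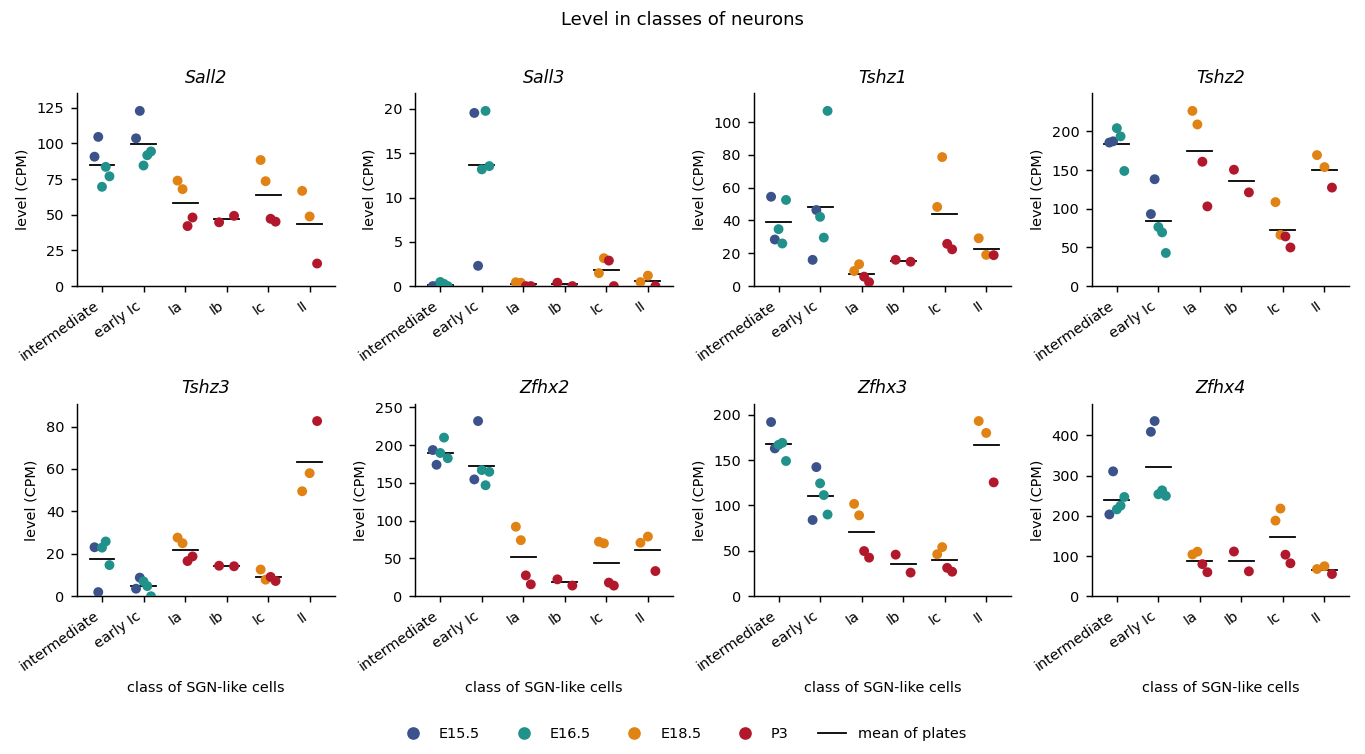
Level of 8 members in CPM (vertical axis, linear from 0) in classes of SGN-like cells (horizontal axis), the first 2 classes at E15.5 and E16.5 and the rest at E18.5 and P3, with a point for each plate coloured by stage and bars for the mean. Tshz3 and Zfhx3 are highest in II-like cells, at 49.5 CPM or more and at 125.4 CPM or more.

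Hair cells were compared with the neurons of the same E18.5 plates, with 37 and 32 HC-like and 326 and 335 SGN-like cells. By their own markers, 13 and 14 of the HC-like cells were vestibular and 10 and 2 were given no kind. The levels of hair cells in this comparison are thus those of a mix of cochlear and vestibular cells. Sall1, Sall2 and Sall3 were higher in hair cells and Tshz1, Tshz2, Zfhx2, Zfhx3 and Zfhx4 were lower. Thus 8 of 9 members tested were called, beside 57.1% of all genes (27.7% higher and 29.4% lower). Every one of these 8 was separated between the classes in both plates.

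Sall1 was at 120.6 and 104.2 CPM in hair cells and at 0.109 and 0.179 in neurons (log2 fold change 9.52, SE 0.25, adjusted p = 3.6e-05). Sall3 was at 252.6 and 208.1 CPM in hair cells and at 0.486 and 1.21 in neurons (8.02, SE 0.47, adjusted p = 0.00019). Of 69 hair cells, 59 had a Sall1 read (85.5%, exact 95% interval 75.0% to 92.8%), and all 59 also had Sall3. Sall3 was found in 97.3% and 93.75% of all hair cells of E18.5 replicates 1 and 2, so nothing is read from this sharing. In neurons, which serve as the background, 14 of 661 cells had Sall1 (2.12%) and 48 had Sall3 (7.26%), with median depths of 349855 reads in neurons and 341244 in hair cells. Sall2 is shared by both classes but was higher in hair cells, at 341.7 and 359.7 CPM against 73.0 and 72.1 in neurons (4.75-fold, adjusted p = 9.1e-05).

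Tshz2 was at 15.02 and 35.4 CPM in hair cells of all kinds and 6.46-fold lower than in neurons (adjusted p = 0.0037). Cochlear hair cells alone had 3.04 and 1.24 CPM of Tshz2, and vestibular ones 28.6 and 71.9. Zfhx2 was at 18.05 and 16.9 CPM (4.57-fold lower, adjusted p = 0.00017), Zfhx3 at 26.8 and 23.3 (3.61-fold lower, adjusted p = 0.00034) and Zfhx4 at 39.3 and 31.5 (3.95-fold lower, adjusted p = 0.00035). Tshz1 was at 14.3 and 10.2 CPM (2.99-fold lower, adjusted p = 0.0023). Neuronal markers took 0.167% and 0.229% of hair cell reads against 1.61% and 1.64% in neurons, with all 12 detected, and the part of neuronal RNA in these levels was not tested.

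Among hair cells, inner (IHC), outer (OHC) and vestibular cells were named from their own markers. Cells with vestibular markers were present although the labels give cochlea as the tissue. Sall2 followed a graded order, with 268.3 and 258.4 CPM in IHC-like, 87.1 and 108.7 in OHC-like and 514.1 and 522.4 in vestibular cells. No 2 of these classes overlapped, and neurons of these plates had 73.0 and 72.1. Sall2 was the only one of 8 members called between OHC and IHC, beside 8.24% of all genes (3.56% higher and 4.68% lower) (2.66-fold lower in OHC, adjusted p = 0.0024), on 6 and 13 IHC-like and 8 and 3 OHC-like cells. Sall1 and Sall3 were present in all hair cell kinds, with 87.1 to 142.8 CPM of Sall1 and 174.9 to 308.7 CPM of Sall3, and were not called between them.

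Between vestibular and cochlear hair cells 3 of 9 members were called, all higher in vestibular cells, beside 11.1% of all genes (6.32% higher and 4.74% lower). Tshz2 was at 28.6 and 71.9 CPM in vestibular and at 3.04 and 1.24 in cochlear hair cells (log2 fold change 4.545, SE 0.64, adjusted p = 0.0029). Tshz3 was at 80.4 and 24.6 CPM in vestibular and at 3.04 and 3.18 in cochlear hair cells (4.04, SE 0.63, adjusted p = 0.0046). Both were separated in both plates, and the vestibular plates differed from each other in both genes, in opposite order. Sall2 was at 167.8 and 227.3 CPM in all cochlear hair cells and 2.58-fold higher in vestibular cells (adjusted p = 0.0047).

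**Figure D4:**
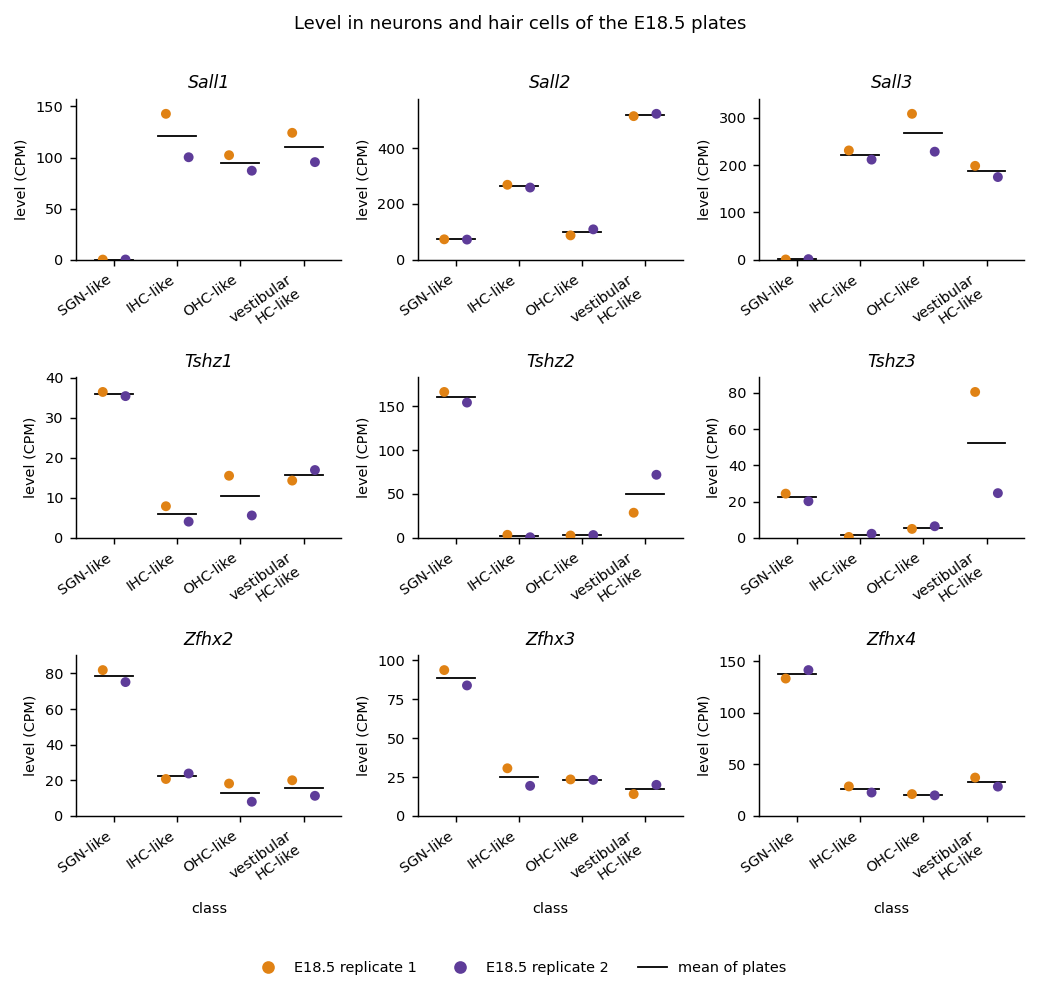
Level of 9 members in CPM (vertical axis, linear from 0) in SGN-like cells and 3 kinds of hair cells (horizontal axis) of the E18.5 plates, with a point for each plate and bars for the mean. Sall1 and Sall3 stand near 0 in neurons and at 87.1 CPM or more in every hair cell sum, and Sall2 orders the hair cells from OHC to vestibular.

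The few hair cells of other stages also held Sall1, Sall2 and Sall3. At E16.5, 4 and 8 HC-like cells (replicates 1 and 3) had Sall1 at 234.3 and 61.1 CPM, Sall2 at 331.3 and 439.5 and Sall3 at 209.3 and 38.2. Of these cells, 2 and 7 were named vestibular. At E17.5, 5 HC-like cells, of which 3 were given no kind, had 211.4, 181.7 and 668.8 CPM of Sall1, Sall2 and Sall3. Zfhx4 in the E16.5 hair cells was at 22.55 and 23.4 CPM, below the neurons of those plates (193.6 and 230.9). In the E17.5 hair cells it was at 271.7 CPM, above the neurons of that plate (206.9) and unlike E18.5. No test was made on these cells.

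The called log2 fold changes of all members can be read side by side. Every member but Sall4 was called in at least 1 of the 16 comparisons, several of which share the same sums.

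**Figure D5:**
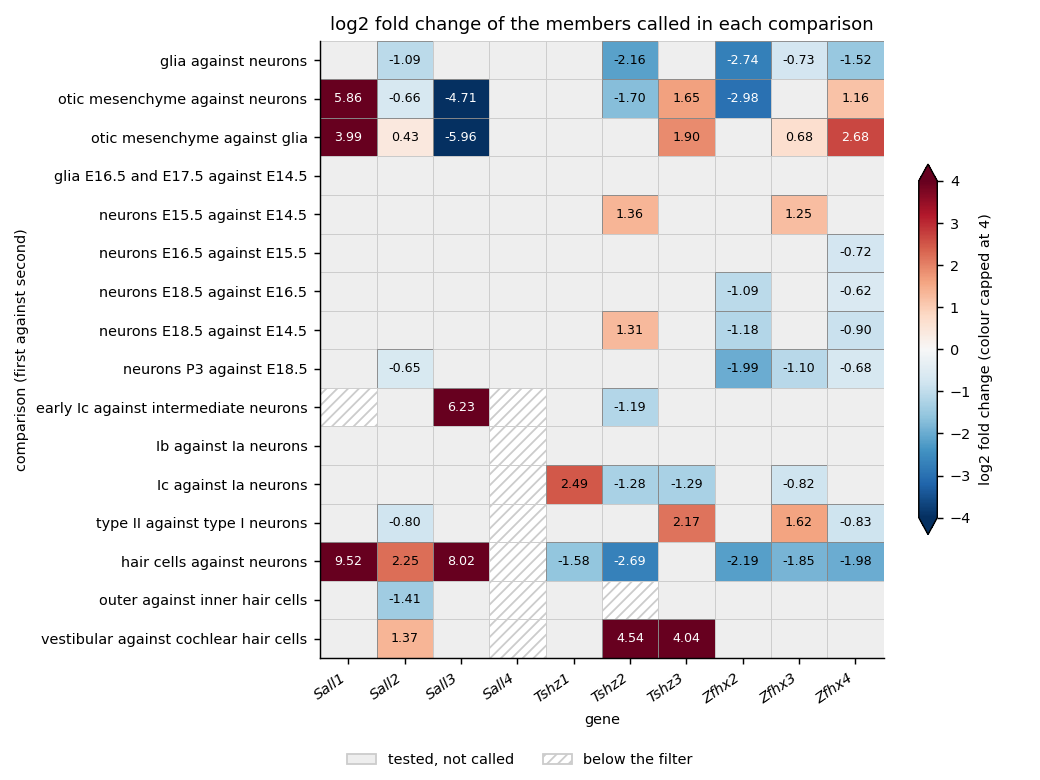
The log2 fold change, first class or stage against second, of each member (horizontal axis) called at an adjusted p under 0.05 in each of 16 comparisons (vertical axis), with the number in the cell and colour capped at 4; grey cells were tested and not called, hatched cells were below the filter. Zfhx2 and Zfhx4 are negative in every comparison of neuronal stages where they are called, and Sall1, Sall2 and Sall3 are positive for hair cells against neurons.

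Partners and relatives of these factors were read from lists of co-repressors and of zinc-finger homeobox genes. Among 14 NuRD genes, 7 were called higher and 3 lower in glia than in neurons (median log2 fold change 0.42, beside 0.05 over all genes, of which 28.4% were higher and 25.9% lower). Chd5, a chromatin remodeller of neurons, had the largest called difference (-5.59, adjusted p = 1.0e-05). In hair cells against neurons 6 were higher and 4 lower (median 0.07, beside -0.05 and 27.7% higher and 29.4% lower over all genes), with Chd5 at -3.69 and Chd3 at -2.60. From E18.5 to P3 in neurons 2 were higher and 6 lower (median -0.44, beside -0.09 and 12.8% higher and 12% lower over all genes), and Chd5 fell as well (-1.85).

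Of 6 CtBP and Groucho co-repressors, Tle2 and Tle4 moved with the neuron classes. In Ic against Ia, Tle2 was higher (log2 fold change 5.57, adjusted p = 6.5e-05) and Tle4 lower (-1.96, adjusted p = 4.1e-05), 1 of 6 in each direction (median 0.15, beside -0.01 and 2.13% higher and 2.52% lower over all genes). In type II against type I the directions were the opposite, with Tle2 at -2.60 and Tle4 at 1.96, and again 1 of 6 in each direction (median 0.39, beside -0.02 and 7.37% higher and 7.88% lower over all genes). Of 8 zinc-finger homeobox relatives, Zeb2 was higher and Zeb1 lower in Ic than in Ia (1.44 and -0.64), and Zeb1 was the only one called in type II (0.82, adjusted p = 0.00057). Of these, both Zeb genes were lower in hair cells than in neurons (-4.09 and -2.79), where 1 of the 8 was higher and 3 were lower, beside the shares of all genes given above for that comparison.

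The genes whose pattern was most like each member were found by Pearson correlation of log2(CPM + 1) over 31 means of a class at a stage, among 14954 genes. These means share libraries and hair cells weigh heavily in them, so the values are descriptive. Sall1 was nearest to Msrb3 (r = 0.96) and Inhba (0.95), Sall2 to Ipo13 and Tmem183a (0.89 each), and Sall3 to Elfn1 (0.89) and Barhl1 (0.82). Msrb3 is a methionine sulfoxide reductase needed for hearing, and Barhl1 is a homeodomain factor needed for hair cell survival. Tshz1 was nearest to Slit2 (0.81) and Ncapd3 (0.81), Tshz2 to Lrrc75b (0.9215) and Dlgap1 (0.91), and Tshz3 to Qpct (0.75) and Mfsd7b (0.66). Zfhx2 was nearest to Fbrsl1 (0.91) and Prrc2b (0.90), Zfhx3 to Antxr1 (0.72) and BC017158 (0.71), and Zfhx4 to BC028528 (0.92) and Pou3f4 (0.91). Pou3f4 is a factor of otic mesenchyme and was one of the markers used for that class. Within the set, the highest r were 0.59 for Zfhx4 with Tshz1 and 0.58 for Sall1 with Sall3, and the lowest was -0.72 for Sall1 with Tshz2.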

How the data were processed

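The authors demultiplexed the Smart-seq2 reads with deindexer, aligned them to mm10 with STAR, counted them with featureCounts and deposited a table of uniquely mapped read counts per gene and well, with spike-ins. The annotation and strand of counting are not given in the sources used here. Of 4608 wells, 4226 with over 1000 genes and under 5% spike-in reads were kept, and 1 plate of 384 wells matched to no sample was not used. Totals per plate are given with the results and intervals cover counting error only.

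Cells of each stage were clustered with scanpy 1.11.5 (2000 variable genes, 30 components, 30 neighbours, Leiden resolution 1) without the members, the list genes and 1364 genes of a glial code, and named "-like" from marker lists. No doublet caller was run. The naming rule and the handling of ties between Ib and Ic were revised after cluster tables were seen and before any member was tested. The members and lists were chosen with earlier results of these data known. Classes come from the cells compared, which lowers p-values.

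Counts were summed per plate and class (at least 5 cells, 3 for kinds of hair cells) and tested with edgeR 4.0.16 (TMM, filterByExpr, quasi-likelihood F test, Benjamini-Hochberg over all genes tested, called at adjusted p under 0.05). A plate is the replicate. CPM uses TMM-scaled totals. The test was checked on simulated data. Alternatives were DESeq2 1.42.0, limma-trend (limma 3.58.1), no filter on low counts, thinning to 100000 reads per cell, other clusterings, leaving out cells or a plate, and the plate as a block. Genes were named by a rule that took all members, the 2 called genes of each list with the largest change and the 2 most similar genes of each member. 1 further gene list is not reported here.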

Additional observations from a re-analysis of the deposited data

Results flagged for a closer look

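Groups of cells that were not compared on their own held Sall genes. The epithelium-like cells entered no comparison, and the other 2 groups were part of the SGN-like sums. In the epithelium-like cells of E15.5, 8 and 5 cells, the mean was 295.8 CPM for Sall1, 441.2 for Sall2 and 389.3 for Sall3. All 6 epithelium markers were counted in them, and so were 9 and 6 of 9 hair cell markers, whose part in these levels was not tested. In a neuron cluster of E16.5 led by Fam19a2, Hs3st2 and Sulf2 (34 and 33 cells), Sall3 averaged 115.5 CPM, and 44 of 68 such cells had a read (64.7%, exact 95% interval 52.2% to 75.9%), counting 1 cell of replicate 3 that is not in the mean. The naming rule called this cluster unspecialized, but its unspecialized markers summed to 156.3 and 201.3 CPM, against 2945 and 2344 in the unspecialized-like cells of E14.5, and its Ic markers to 586.1 and 586.6 CPM, so it carries no class name here. Zfhx3 was at 8.60 and 11.4 CPM in these cells. In an E14.5 cluster of 8 and 10 cells led by Th, Gal, Htr3a, Prdm12 and Scn10a, Sall3 averaged 34.78 CPM.

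Tshz1 in otic mesenchyme against neurons went in opposite directions at successive stages. It was higher in mesenchyme in both E14.5 plates, by 0.454 and 1.42 on the log2 scale, and lower in both E15.5 plates, by -0.940 and -0.143. The means differed by 1.477, and the difference was not tested. No stage has more than 3 plates, so no plate was tested for standing apart from its group.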

How the results depend on the processing

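Of the 52 called differences of a member, 475 of 485 alternatives other than leaving out a plate kept the call, 10 lost it and none changed direction, while 43 of 294 fits without a plate lost it. The count of members called for Ib against Ia was 1 by DESeq2, without a filter, with the glial code kept and at Leiden resolution 2, against 0. From E14.5 to E15.5 it was 1 in SS2_20 plates, 1 without the cells named unspecialized and 0 within intermediate neurons, against 2, and from E15.5 to E16.5 it was 2 by DESeq2 and 0 in SS2_20 plates against 1. Leaving out a plate gave counts of 5 to 6 for glia against neurons, 6 to 7 for OM against neurons, 4 to 6 for OM against glia, 1 to 2 for early Ic, 2 to 4 for type II, 2 to 5 for Ic against Ia, 0 to 0 for Ib against Ia and for glia with age, and, by step of neurons, 1 to 2, 0 to 1, 0 to 3, 3 to 6 and 3 to 5 (E14.5 to E18.5). Sall3 from E18.5 to P3 (-0.72, not called) was 0.1996 without the 25% of cells with most glial reads, and -8.753 to 0.2389 without a plate (0.2389 without P3 replicate 2, 0.05978 without E18.5 replicate 2). Zfhx3 from E14.5 to E18.5 (0.34, not called) was -0.1003 without E14.5 replicate 1 and 1.017 without replicate 2. The causes were not tested. With the plate as a replicate block, Zfhx4 gained a call in Ic against Ia (0.65, adjusted p = 0.0256), and no other call changed. At E14.5 and E15.5, SGN-like, glia-like and OM-like sums of 1 plate did not deviate together (r of -0.00436 to 0.0266 over 9857 genes). Other stages and the classes of neurons were not examined in this way, so nothing is said of their pairing by plate. Leaving out a plate was not run for hair cells, where 1 sum a class would remain. Without the E14.5 cluster led by Prdm12, chosen after seeing the data, Tshz1 gained a call from E18.5 to P3 (adjusted p = 0.0321). Within intermediate neurons, also chosen after seeing the data, Zfhx4 from E14.5 to E15.5 was -0.0808 (0.44 in all neurons, not called). Low counts limit Sall1, Sall3 and Sall4 in neurons.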
